A study of Mus musculus with 12 samples.

Results

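The contacts of the splicing regulator ESRP1 with the RNA of Cd44 were taken from 3 lists of single-nucleotide sites mapped by enhanced crosslinking and immunoprecipitation (eCLIP) in mouse epidermis. In eCLIP, ultraviolet light joins a protein to RNA, the protein is recovered with an antibody, and the stops of reverse transcription mark the contact. A site was counted to Cd44 when it lay on the minus strand of chromosome 2 between 102811141 and 102901669 (GRCm38), the annotated extent of the gene. This gave 90 of 167480 sites. They fell on 57 different nucleotides and, joined where at most 10 nt apart, formed 21 of the 45738 regions of the 3 lists together.

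All libraries came from back skin epidermis of pups on postnatal day 1 with the genotype Esrp1FLAG/FLAG, in which both alleles of the endogenous gene carry the FLAG tag. There were 6 FLAG immunoprecipitations and 6 inputs, numbered as biological replicates 1 to 6, and libraries were made from RNA of the membrane between 75 and 140 kDa. For each list the authors pooled 2 replicates and called sites against their input. List 1 holds replicates 1 and 2, list 2 holds 3 and 4, and list 3 holds 5 and 6. The labels name no library without the tag, and how far 2 pooled replicates differ cannot be seen.

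Cd44 encodes a transmembrane receptor for hyaluronan. Its first exons, which encode the hyaluronan-binding domain, and its last exons, which encode the membrane span and the tail, are constant, and between them lies a block of variant exons that are joined in many combinations. Epithelial cells include variant exons, mesenchymal cells mostly skip the whole block, and ESRP1 and its paralog ESRP2 are known to favour the epithelial form. The annotation used here gives the extent of genes without exons. Sites are therefore placed by distance from both ends of the span, and which of them lie in variant exons, introns or the 3′ untranslated region was not determined. The 5′ and 3′ ends are those of the span on the minus strand, so coordinates fall from 5′ to 3′.

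Cd44 was bound in each list. List 1 held 39 Cd44 sites among 73602, list 2 held 17 among 40014 and list 3 held 34 among 53864. List 2 was lowest in both counts. Per 10000 sites of its list, Cd44 had 5.30, 4.25 and 6.31 sites, a mean of 5.29 ± 1.03 (SD, n = 3 lists). Among 21887 protein-coding genes it ranked 32nd in list 1, 85th in list 2 and 25th in list 3 by number of sites, with 3, 17 and 3 other genes at the same number. In this bulk tissue, the number of cells that transcribe a gene and the RNA per cell cannot be told apart, and the lists carry no RNA level.

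All sites in the span lay on the strand of the gene, with 0 on the opposite strand in every list. None lay within 2000 nt outside either end. The 5′ part of the gene was empty: the first site in the direction of transcription lay 33891 nt from the 5′ end, after 37.4% of the span. From there to the 3′ end sites came in separate groups, which the map of sites along the gene shows list by list.

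**Figure D1:**
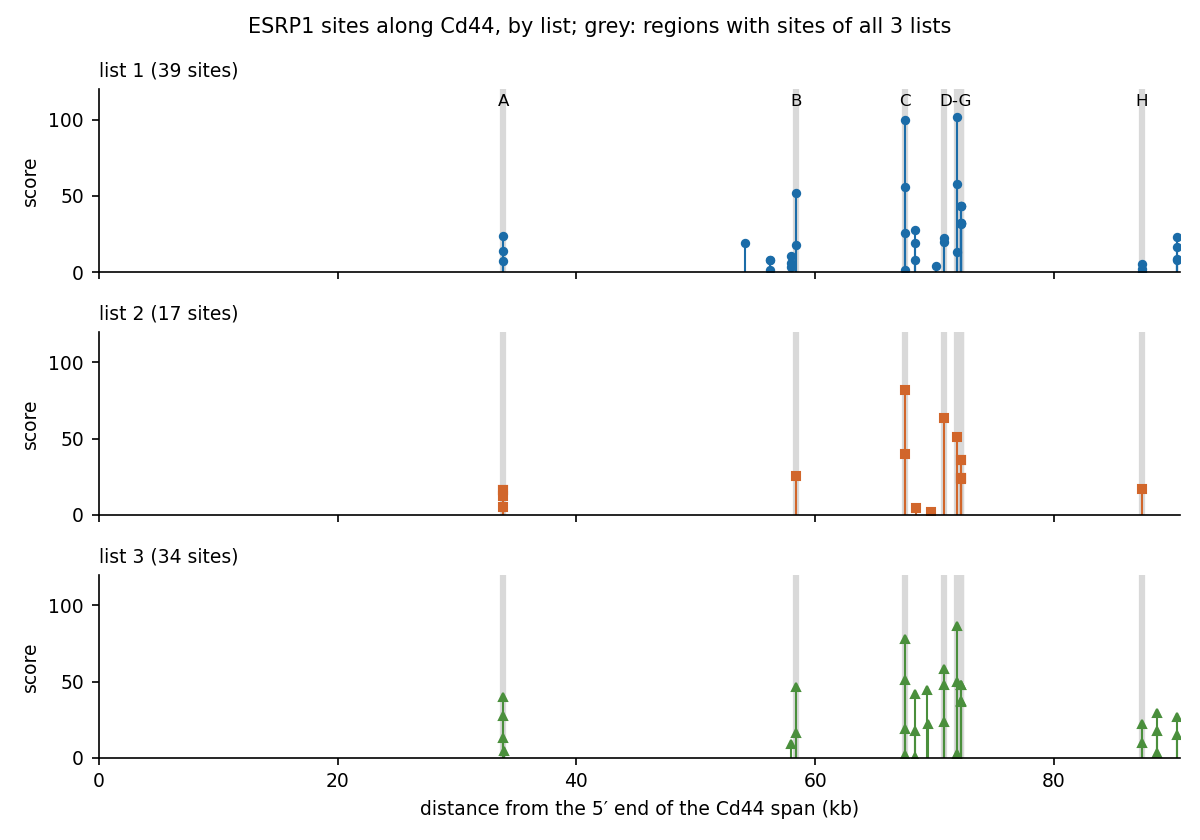
Deposited score of each Cd44 site (vertical axis, the authors' unit) against its distance in kb from the 5′ end of the gene span, in 3 panels for lists 1, 2 and 3. Grey bars and letters mark the 8 regions with sites of all 3 lists; regions C to G stand together, and no list has a site in the first 33891 nt.

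Of the 21 Cd44 regions, 8 held sites of all 3 lists, 3 held sites of lists 1 and 3, and 10 came from a single list (4 from list 1, 2 from list 2 and 4 from list 3). The part found in all 3 lists was 38.1% in Cd44, where 21.1% of all regions were found in 3 lists. These 8 regions held 24 of the 39 sites of list 1, 15 of the 17 of list 2 and 22 of the 34 of list 3. They are named A to H here, from 5′ to 3′. Their median length was 6 nt, against 8 nt for all regions found in 3 lists. Without list 2 there were 11 regions in both remaining lists, and without list 1 or list 3 there were 8.

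Region A was the 5′-most region found in all 3 lists. It covered 102867774 to 102867778, 33891 nt from the 5′ end, and held 3, 4 and 3 sites in lists 1, 2 and 3. Of its 4 positions, 3 carried a site in each list. At 102867778 the scores were 23.9, 16.3 and 39.7, at 102867777 they were 14.0, 5.44 and 27.5, and at 102867775 they were 7.11, 16.3 and 13.2. Lists 1 and 3 had the same order of these nucleotides, while in list 2 the outer ones were nearly equal. A further site of list 3, with a score of 4.72, lay at 102867734, and the next region found in all 3 lists followed after 24515 nt.

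Region B covered 102843257 and 102843258, 58411 nt from the 5′ end. Its upstream nucleotide 102843258 had scores of 51.9, 25.5 and 46.7 and was the highest of the region in every list. The downstream nucleotide had 17.5 in list 1 and 16.5 in list 3 and no site in list 2. Between A and B no region recurred in all lists. Sites of list 1 alone lay at 102847516 (score 18.9), at 102845463 to 102845467 (highest score 8.26) and at 102843672 to 102843674 (highest score 10.4). At 102843712 to 102843715 list 1 and list 3 had a site each, 3 nt apart, with low scores of 3.39 and 9.36.

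The 5 regions C to G lay within 4738 nt, from 102829425 to 102834162, which is 5.23% of the span. This stretch began 67507 nt from the 5′ end and ended 18284 nt before the 3′ end. It held 20 of 39 sites of list 1 (51.3%, with an exact Clopper-Pearson interval at 95% of 34.8 to 67.6). In list 2 it held 11 of 17 (64.7%, 38.3 to 85.8), and in list 3 it held 20 of 34 (58.8%, 40.7 to 75.4). When the span is cut into 10 equal parts, these are also all the sites of part 8, whose mean share was 58.3% ± 6.73 (SD, n = 3 lists). The intervals cover counting error only and treat sites as independent, although sites of a region are not. The stretch and part 8 were picked from these same sites because they held the most, and the intervals do not cover this choice. In the higher-scoring 50% of each list the mean share was 70.5%.

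Region C, at 102834150 to 102834162, had the highest score of any Cd44 site in list 2. Its 5′ nucleotide 102834162 had scores of 99.4, 82.0 and 78.1 in lists 1, 2 and 3, at percentiles 94.6, 94.8 and 91.3 of the scores of each list. The neighbour 102834161 had 55.5, 40.2 and 18.9. In list 1 and list 3 another site followed at 102834160, with 25.6 and 51.1. Each also had a weak site near the 3′ border, at 102834151 in list 1 (1.67) and at 102834150 in list 3 (2.04). All lists thus had their highest score on the first nucleotide of the region, and list 2 had only the first 2 nucleotides.

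Region D, at 102830899 to 102830901, lay 3248 nt downstream of C. Its nucleotide 102830901 had scores of 19.8, 63.7 and 58.3. As percentiles of each list, the highest scores of the region were 67.6, 92.1 and 85.9, so that list 1 stood lowest. In list 1 the neighbour 102830900 was slightly higher, with 22.2, and in list 3 it had 48.0. Region D was the second of the 8 by score percentile in list 2 and the third in list 3, but the seventh in list 1.

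Region E, at 102829780 to 102829784, had the highest score of any Cd44 site in lists 1 and 3. Its middle nucleotide 102829782 had scores of 101, 50.9 and 86.5, at percentiles 94.8, 89.1 and 92.9. List 2 had only this nucleotide. The nucleotides beside it differed between the lists: list 1 had 57.6 at 102829781, where list 3 had 1.99, and list 3 had 49.6 at 102829783, where list 1 had no site. The summit was thus the same in all lists while its flanks were not.

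Regions F and G lay 13 nt apart and together covered 36 nt. F, at 102829445 to 102829460, had 5, 3 and 3 sites, and G, at 102829425 to 102829431, had 2, 2 and 1. Within each list their scores lay close together, from 31.4 to 43.0 in list 1, 23.6 to 35.9 in list 2 and 36.8 to 47.5 in list 3. The nucleotides 102829451, 102829447, 102829446 and 102829425 carried a site in all 3 lists. The adjacent nucleotides 102829446 and 102829447 had the same score in list 2 (35.9) and in list 3 (47.5), and in list 1 the pair 102829445 and 102829446 had the same score (43.0). Such pairs of equal scores made up 1 of 15 adjacent Cd44 pairs in list 1, 1 of 4 in list 2 and 1 of 12 in list 3, against 2.38%, 8.14% and 6.52% of adjacent pairs in the whole lists.

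Between C and D lay further sites that did not recur in all lists. At 102833294 to 102833298 list 1 and list 3 had 3 sites each, with highest scores of 27.6 and 41.9, both at 102833298. List 2 had no site there and a single weak one (4.49) at 102833259. List 3 alone had sites at 102832311 (44.3) and 102832253 (22.5). The first of them, at percentile 79.2, was the highest Cd44 value outside the regions found in all lists. Single sites of list 2 at 102831941 (2.21) and of list 1 at 102831591 (4.00) were weak.

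The last of the 10 equal parts of the span held 7, 1 and 7 sites in lists 1, 2 and 3. Region H, at 102814291 to 102814305, lay 3150 nt from the 3′ end, and 15119 nt separated it from G. No nucleotide of H carried a site in all 3 lists: list 2 had 102814292 alone (16.9), list 1 had 102814291, 102814297 and 102814305 (highest score 5.05), and list 3 had 102814298 and 102814305 (highest score 22.2). H was the weakest of the 8 regions in lists 1 and 3, at percentiles 28.6 and 57.2, and in list 1 it fell below the median of all sites. In the last 1000 nt, lists 1, 2 and 3 had 4, 0 and 2 sites. They formed a region at 102811361 to 102811371, 220 nt from the 3′ end, in which lists 1 and 3 shared the nucleotide 102811369 (scores 22.8 and 26.4). A group of 3 sites at 102813018 to 102813024, with a highest score of 29.6, was in list 3 only.

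**Figure D2:**
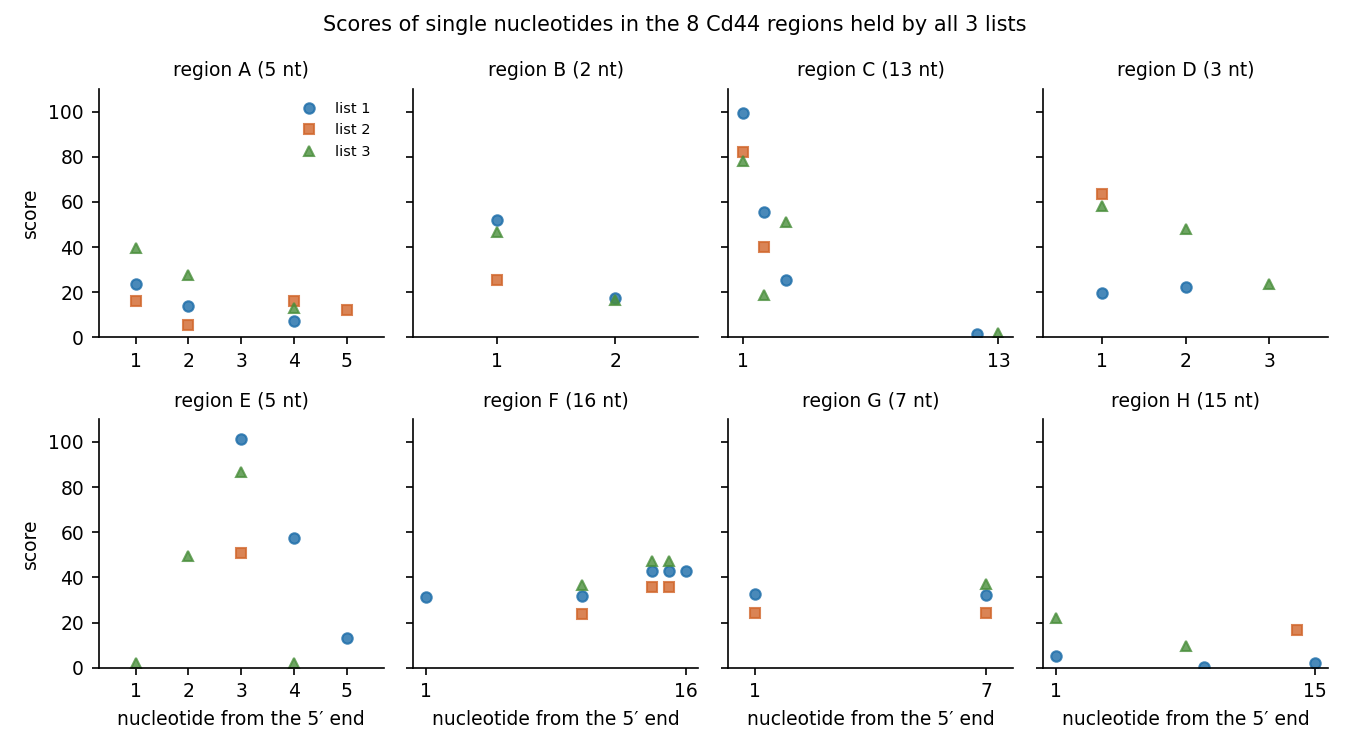
Deposited score (vertical axis, the authors' unit) of each nucleotide with a site in the 8 Cd44 regions held by all 3 lists, against its position from the 5′ end of the region; circles, squares and triangles are lists 1, 2 and 3. In regions B, C and E the same nucleotide has the highest score in every list, with 99.4, 82.0 and 78.1 at the first nucleotide of C, and in region H no nucleotide has a site in all lists.

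Of the 57 Cd44 nucleotides with a site, 12 had one in all 3 lists, 9 in 2 lists and 36 in a single list. Of the 9 in 2 lists, 8 were in lists 1 and 3 and 1 was in lists 1 and 2. The 12 nucleotides made up 30.8% of the Cd44 sites of list 1 (exact Clopper-Pearson interval at 95%, 17.0 to 47.6). In list 2 the share was 70.6% (44.0 to 89.7) and in list 3 it was 35.3% (19.7 to 53.5). Over all sites these shares were 19.8%, 36.4% and 27.1%. These intervals treat neighbouring sites as independent, so they are too narrow and do not compare Cd44 with the whole lists. Regions C to G held 8 of the 12, A held 3, B held 1 and H none. Without list 2, 20 nucleotides were in both remaining lists, against 13 without list 3 and 12 without list 1.

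Nucleotides in all 3 lists had a higher median score than the rest of Cd44 in the same list, with overlapping ranges. Their median percentile was 80.0, 77.9 and 78.4 in lists 1, 2 and 3, against 47.1 (27 sites), 44.3 (5 sites) and 49.6 (22 sites) for the other sites. The lowest percentiles of nucleotides in all 3 lists were 36.7, 24.9 and 41.8. Whether the same holds over all sites of the lists was not examined. Over all Cd44 sites the median percentile was 63.3, 71.6 and 61.2, a mean of 65.4 ± 5.50 (SD, n = 3 lists), and 24, 13 and 21 sites lay above the median of their list. Sites above percentile 90 numbered 2 in each list.

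The order of the 8 regions by their highest score was similar but not the same in the 3 lists. C and E took the first 2 ranks in lists 1 and 3 and ranks 1 and 3 in list 2. F was the fourth in every list. B was the third in list 1 and the fifth in lists 2 and 3. A, G and H filled lower ranks, from the fifth to the eighth, in each list. The region with the widest spread among C to G was D, at percentiles 67.6, 92.1 and 85.9, and F was the most even, at 82.9, 82.4 and 81.1. These are ranks of the authors' scores within lists and carry no test.

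**Figure D3:**
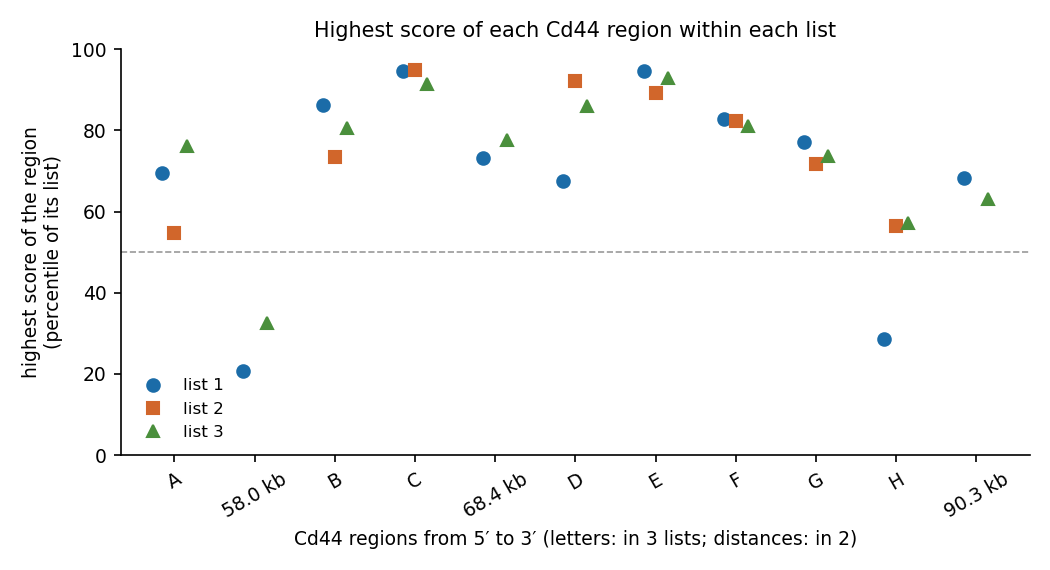
Highest score of each Cd44 region as a percentile of all site scores of its list (vertical axis), for the 8 regions held by 3 lists (A to H) and the 3 held by lists 1 and 3 (named by distance from the 5′ end), in order from 5′ to 3′; circles, squares and triangles are lists 1, 2 and 3 and the dashed line is the list median. C and E lie at percentiles 89.1 to 94.8 in all lists, and H reaches 28.6 in list 1.

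The highest-scoring nucleotide of a region lay in the same place in all lists in 4 of the 8 regions (B, C, E and F, with equal scores counted as shared), where 37.9% of all regions in 3 lists had such a nucleotide. The 37.9% covers all 9649 such regions, among them regions of 1 nt, where a shared nucleotide is automatic. None of the 8 Cd44 regions was that short. The highest-scoring nucleotide was the 5′-most of the region in 5 of 8 Cd44 regions in list 1, 3 in list 2 and 5 in list 3, and the 3′-most in 1 in each. Among the 9143 regions of at least 2 nt found in 3 lists, it was the 5′-most in 24.8%, 26.3% and 23.8% and the 3′-most in 15.3%, 18.9% and 17.9%. With 8 regions, these shares of Cd44 are imprecise and were not tested. Joined within lists 1, 2 and 3 on their own, Cd44 regions held 2.60, 1.70 and 2.27 sites on average, near the 2.53, 1.64 and 2.36 of all regions. Of these, regions of a single site were 3 of 15 in list 1, 6 of 10 in list 2 and 5 of 15 in list 3, where they made up 39.3%, 62.0% and 42.6% of all regions.

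Set among protein-coding genes, Cd44 was near the top by number of regions and less so by density. Of protein-coding genes, 16.4% had at least 1 region in all 3 lists, with a median of 1 in those genes, and 0.0685% had at least 8. A site in any list was counted in 7375 of the 21887 genes, so the 16.4% is taken over many genes without a site. There were 9 genes with more regions than Cd44 and 5 others with 8. Of 935 bound genes with spans of 50 to 150 kb, 3 had more regions than Cd44. Per 10 kb of span Cd44 had 0.884 regions, against a median of 0.406 in bound genes, and 27.5% of bound genes had a higher density. The tightest 5 regions of Cd44, which are C to G, spanned 4738 nt. The median was 23511 nt in 103 genes with at least 5 regions, and 21 of them were tighter. Of the 103 genes, 51 had exactly 5 regions and so no choice of window, whereas Cd44 took the tightest of several, which favours a short one. Spans of at least 50000 nt were found in 58 of the 103. Their median window was 61462.5 nt, and 8 were tighter than Cd44, among them Iffo2 with 1372 nt and Ctnnd1 with 3013 nt.

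The genes with the most similar numbers of sites were Eef2, Rad23b, Dsg1b, Mboat2 and Krt5. Likeness was the Euclidean distance between sites per 10000 in the 3 lists. Eef2, which encodes the translation elongation factor that moves the ribosome, was nearest, with 40, 15 and 32 sites and 9 regions in all 3 lists, at a distance of 0.637. Rad23b, a carrier of ubiquitinated proteins that also acts in DNA repair, had 35, 17 and 37 sites and 6 regions. Dsg1b, a desmosomal cadherin with close copies, had 40, 18 and 30 sites and 8 regions. Mboat2, a membrane acyltransferase gene, had 7 regions and Krt5, the basal keratin gene, also had 7. Their spans ran from 5837 nt in Krt5 to 132966 nt in Mboat2, so a similar number of sites came from genes of very different length.

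Among 28 genes with exons known to be controlled by ESRP proteins, 23 had a region in all 3 lists, beside 16.4% of all protein-coding genes. The median was 1.5 regions against 0 over all protein-coding genes. Cd44 is itself a member, and 22 other members had such a region. The list was chosen with earlier results of these data known, and the difference was not tested. Cd44, with 8, followed Ctnnd1, the gene of p120-catenin, which had 13. Grhl1, an epidermal transcription factor gene, had 7, and Atp6v1c2, a proton pump subunit gene, had 5. Magi1, Plekha1 and Ralgps2 had 3 each. Per 10 kb of span, the 5 genes above the 0.884 of Cd44 were Ctnnd1 with 1.81, Rps24, a short ribosomal protein gene with a single region, with 1.59, Grhl1 with 1.55, Atp6v1c2 with 1.23 and Golga2, a Golgi matrix protein gene, with 1.02. Fgfr2, whose epithelial and mesenchymal exons are mutually exclusive, had 23, 14 and 19 sites but 2 regions in all lists, or 0.192 per 10 kb. Mbnl1, itself a splicing factor gene, had 16, 2 and 10 sites, but no region was common to the lists. No site was counted in Exoc7, Ktn1, Osbpl3 and Palm.

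**Figure D4:**
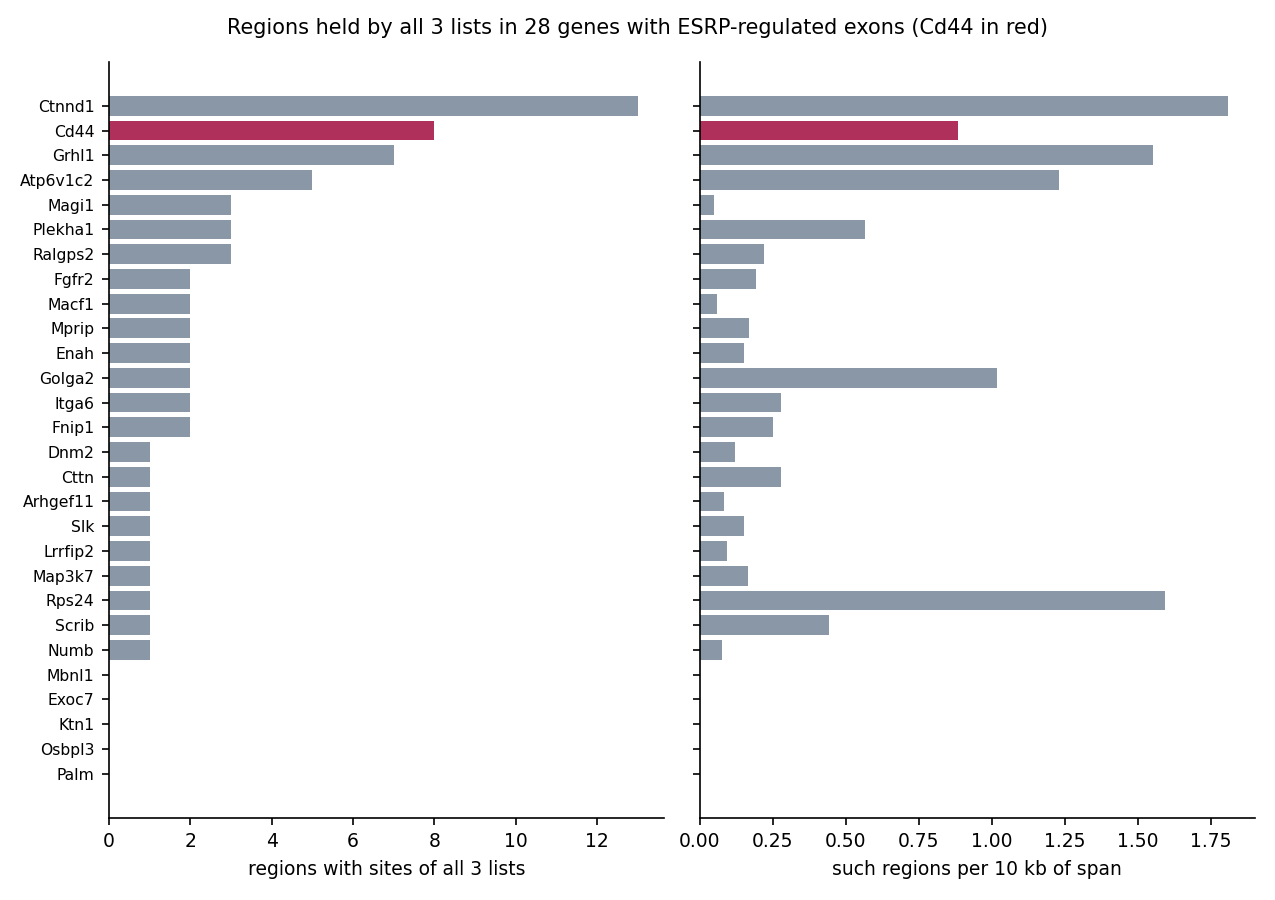
Number of regions with sites of all 3 lists (left) and the same number per 10 kb of gene span (right) in 28 genes with exons known to be controlled by ESRP proteins, with Cd44 in red. Cd44 is the second by number, with 8 regions after 13 in Ctnnd1, and at 0.884 per 10 kb it lies below Ctnnd1, Rps24, Grhl1, Atp6v1c2 and Golga2.

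None of 12 genes for synthesis, breakdown and binding of hyaluronan had a region in all 3 lists, against 16.4% of all protein-coding genes, and 9 of them had no counted site. Cemip, which encodes a protein needed for hyaluronan breakdown, had 2 sites in each list, Cemip2 had 3 in list 1 only, and Hyal2, a hyaluronidase gene, had 1 in list 3. The synthase genes Has1, Has2 and Has3 had no counted site.

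Among genes whose products join the Cd44 tail to the cytoskeleton, 1 of 7 had a region in all 3 lists, near the 16.4% of all protein-coding genes. This was Ezr, the ezrin gene, with 3 regions and 27, 17 and 19 sites. The related Rdx (radixin), with 6, 1 and 1 sites, and Msn (moesin), with 0, 2 and 3, had none that met this. Nf2, the merlin gene, had 3, 2 and 3 sites, Ank3 5, 2 and 5, and Iqgap1 9, 1 and 3, while Epb41l3 had none. In this group Ezr thus held most of the sites.

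Of 5 genes for proteases that cut Cd44 and their inhibitor, 3 had a region in all 3 lists, beside 16.4% of all protein-coding genes. Adam10, a sheddase gene, had 2 regions and 17, 6 and 11 sites. Adam17, another sheddase gene, had 1 region and 11, 9 and 19 sites. Mmp14, a membrane metalloprotease gene, had 1 region and 7, 4 and 5 sites. Mmp9 had 4 sites in list 1 only and the inhibitor gene Timp3 had none. The strand of Mmp9 was taken from these sites themselves, so they may lie opposite to the gene and were not shown to be in its RNA.

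Of 10 genes for receptors and ligands known to act with Cd44, 4 had a region in all 3 lists, beside 16.4% of all protein-coding genes. The receptor genes Fgfr2, Erbb3 and Erbb2 had 2 each and Fgfr1 had 1. Erbb2 had 5, 16 and 11 sites and Erbb3 had 12, 15 and 13, so list 2, the shortest, held the most sites in both. Egfr, with 3, 1 and 3 sites, and Hbegf, with 0, 2 and 0, had no region in all lists. No site was counted in Met, whose signalling is known to use Cd44 with variant exons, nor in Hgf, Spp1 and Tgfbr1.

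Of 18 genes for regulators of Cd44 variant exon splicing, 14 had a region in all 3 lists, beside 16.4% of all protein-coding genes, and this difference was not tested. The 16.4% covers all 21887 genes, of which 7375 had a counted site in any list. Hnrnpa1 had 7 regions and Hnrnpm, whose product is known to oppose ESRP1 at Cd44 variant exons, had 6. Esrp1, Ddx5, U2af2 and Srsf10 had 3 each. Tra2a, Srsf3 and Rbfox2 had 2 each, and Tra2b, Srsf1, Srsf6, Ybx1 and Pcbp1 had 1. Khdrbs1, the gene of the signal-dependent Cd44 splicing factor Sam68, had 4, 2 and 2 sites and no such region, and neither had Esrp2, Hnrnpl and Smarca2. Several of these genes are short and have processed copies, which can take or give sites.

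Defining genes of epidermis and of other skin cells were checked in the same way. Of 10 epidermal markers, 6 had a region in all 3 lists, led by Dsg1a with 8, whereas Krt1, Krt14 and Lor had no counted site. Of 14 markers of endothelium, immune cells, melanocytes and dermal fibroblasts, 2 had such a region, Mitf and Csf1r with 2 each, and 8 had no site, so that their share was near the 16.4% of all protein-coding genes. Bound RNA is not a measure of expression, and the part of other cell types in the Cd44 sites was not tested.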

How the data were processed

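The authors deposited 3 lists of 1-nt sites, each with a strand and a score whose scale is not stated. Input was used in the calling, per the file headers. GRCm38, mm10, HOMER, HISAT2 2.1.0 and cutadapt 1.16 are named, without roles, per the submitters' processing notes. Not given in the sources used here are the step that called the sites, the removal of duplicates and the treatment of reads with several alignments, which can add or remove sites in repeated or abundant genes. The lists hold no read counts, so depth is unknown. Scores are printed as deposited, and where those of different lists stand side by side, their sizes are not on a known common scale. Regions were ranked across lists by percentiles only.

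On each strand, sites of all lists no more than 10 nt apart formed a region (Python 3.11.15, pandas 2.3.3), with coordinates 1-based on GRCm38. Gene spans came from RefSeq (GRCm38.p6), with strand from its promoter table for 17492 of 21887 protein-coding genes and from the majority of sites otherwise. In the latter genes, sites opposite to the gene can have been counted. Regions were counted to a gene when their middle lay in its span alone among protein-coding spans. Sites were counted to a gene by the same rule, and both only on its strand. A gene without a counted site can therefore hold sites that this rule left out. With the majority strand for every gene, which was chosen after seeing the data, 3865 genes had a region in all 3 lists in place of 3594, and again 9 genes had more than Cd44. Joining and counting were tested on simulated data, which held separate genes of known strand with regions far apart. Overlapping spans, strands taken from the majority of sites and regions close to each other were not covered. Intervals are Clopper-Pearson, 95%.

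Placement against the variant exon block was planned but exons were not used here, so 10 equal parts of the span replaced it. No sequence is printed because no genome sequence was used. Cd44 and the gene lists were chosen with earlier results of these data known. Named genes were Cd44, the 5 genes nearest to it in sites per list, the ESRP targets with most regions and, of each partner list, those with most regions. Other named members, Iffo2, and the place of the highest nucleotide and equal scores were chosen after their values were seen. A planned list member is not reported here. Golga2 and Rps24 were named after their densities were seen. The window of 5 regions and the limits of span length used with it and with the region counts were not planned. No test of chance was made.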

Additional observations from a re-analysis of the deposited data

How the results depend on the processing

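Some of the Cd44 values changed little with the processing and others moved. In the higher-scoring 50% of sites, the sites per 10000 and the share in part 8 rose by more than their SD between lists. The number of nucleotides in all 3 lists rose under looser rules. The number of regions in all 3 lists, 8, was 7 in the higher-scoring 50% of sites, where region H was lost. On either strand it was again 8, which was fixed in advance because no Cd44 site lay on the opposite strand. With 1 list left out it was 8 to 11, but a region then needed sites of only 2 lists. In all 3 lists, the number was 9, 8, 7 and 8 with join distances of 0, 5, 20 and 50 nt, but not for the same regions. The setting of 0 nt still joined adjacent nucleotides. At 0 nt A and F were each divided and H was lost, at 20 nt F and G became 1 region of 36 nt, and at 50 nt a region at 102833259 to 102833298 was added. The 12 nucleotides in all 3 lists became 19 when a site of each list within 1 nt was enough, and 10 in the higher-scoring 50%. With 1 list left out, where 2 lists are enough and the number cannot fall, there were 12 to 20, the highest without list 2. The mean of 5.29 Cd44 sites per 10000 became 6.94 in the higher-scoring 50%, and the share in part 8 of 10 of the span went from 58.3% to 70.5%. Counting regions in place of sites gave 56.7%. The cause was not tested. The mean score percentile, 65.4, was 67.7 among sites in protein-coding spans and 62.3 to 67.5 with 1 list left out. No paired analysis was possible because each list pools 2 replicates and no values of single libraries were used. Depth is unknown, so a site missing from list 2 cannot be read as a lack of binding.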
